A study of Mus musculus with 10 samples.

Results

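Circadian clock genes were measured in whole liver of fasted female mice. The set was fixed by symbol as 10 genes of the molecular clock, namely Arntl (also called Bmal1), Clock, Npas2, Per1, Per2, Per3, Cry1, Nr1d1, Nr1d2 and Dbp. Of these, 9 were among the 19764 genes of the count table, and Clock was not analysed here. All 9 passed the filter on low counts. GRMAC mice carried floxed alleles of the glucocorticoid receptor gene together with LysM-Cre (GRflox; LysM-Cre+/-), a Cre inserted in the lysozyme M gene that is active in macrophages, neutrophils and other myeloid cells. Their GRflox littermates carried the floxed alleles without Cre. Both groups began a fast at ZT12 (zeitgeber time, where ZT12 is lights-off and the start of the mouse's active phase), and livers were taken 8 h later, at ZT20. There were 5 GRMAC and 5 GRflox libraries, numbered 1 to 5 within each genotype. Age and strain are not given in the sources used here. Neither genotype was sampled at another time or fed, and Cre without the floxed alleles was not included.

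The clock of mammalian cells is a feedback loop of transcription. BMAL1, the product of Arntl, pairs with CLOCK or its relative NPAS2 and activates genes that hold E-box motifs, among them the Per, Cry and Nr1d genes and Dbp. PER and CRY proteins then inhibit that pair, REV-ERB alpha and REV-ERB beta (from Nr1d1 and Nr1d2) repress Arntl and Npas2 through ROR elements, and DBP activates genes through D-box motifs. In mouse liver Nr1d1 and Dbp peak during the day, the Per genes around dusk and Cry1 later in the night, while Arntl and Npas2 peak around dawn. Late in the night Dbp and Per3 are therefore known to be on the way down and Arntl and Npas2 on the way up. Feeding, body temperature and glucocorticoids are known cues of the liver clock, and Per1 is a known glucocorticoid-induced gene.

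The motifs through which these genes act on each other were searched for in RefSeq promoter windows of 300 bases (250 before to 50 after a start site, GRCm38.p6, the assembly behind mm10), on both strands. Windows were found for 8 of the 9 measured genes, 10 windows in all. An E-box (CACGTG) was in that of Cry1 and in 1 of the 2 windows of Per1, against 7.15% of all 32851 windows, and its variant CACGTT was in those of Cry1 and Nr1d1 (4.68% of all windows). The Per3 window held the D-box TTATGTAA at 2 places (0.938% of all windows), and 1 of the Arntl windows held the ROR element TAGGTCA (2.61% of all windows). None of the 10 windows held the cAMP response element TGACGTCA (1.79% of all windows). A match describes letters in the window and does not show that a factor binds there. The stretches with matches are shown because the genes they belong to act on each other in the loop described above; capitals mark the matches, each sequence runs 5′ to 3′ on the gene's strand, and the first 4 lines give the 250 bases before a start site.
Per3, chr4:151044666-151044915, - strand: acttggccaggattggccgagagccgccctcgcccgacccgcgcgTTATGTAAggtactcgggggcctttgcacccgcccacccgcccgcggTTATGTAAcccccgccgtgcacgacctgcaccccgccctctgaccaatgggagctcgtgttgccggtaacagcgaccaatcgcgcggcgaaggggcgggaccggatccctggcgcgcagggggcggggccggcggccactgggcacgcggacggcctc
Cry1, chr10:85185055-85185304, - strand: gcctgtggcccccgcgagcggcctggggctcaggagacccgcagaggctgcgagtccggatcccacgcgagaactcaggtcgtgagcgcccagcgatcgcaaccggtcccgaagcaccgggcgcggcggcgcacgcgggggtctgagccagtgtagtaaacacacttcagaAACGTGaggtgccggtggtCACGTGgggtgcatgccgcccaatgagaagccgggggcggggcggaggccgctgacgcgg
Per1, chr11:69098699-69098948, + strand: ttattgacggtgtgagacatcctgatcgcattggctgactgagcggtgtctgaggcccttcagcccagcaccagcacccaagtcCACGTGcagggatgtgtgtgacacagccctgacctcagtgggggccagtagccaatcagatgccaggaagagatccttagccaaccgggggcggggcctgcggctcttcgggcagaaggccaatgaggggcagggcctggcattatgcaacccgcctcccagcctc
Nr1d1, chr11:98775378-98775627, - strand: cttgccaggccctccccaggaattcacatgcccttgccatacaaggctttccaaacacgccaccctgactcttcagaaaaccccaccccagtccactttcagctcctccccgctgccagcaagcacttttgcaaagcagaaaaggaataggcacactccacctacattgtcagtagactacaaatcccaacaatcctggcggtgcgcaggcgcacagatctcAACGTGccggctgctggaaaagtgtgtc
Arntl, chr7:113207530-113207559, + strand: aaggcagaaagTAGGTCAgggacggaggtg

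Library totals ran from 23258884 to 27692528 counts, and levels below are CPM, counts divided by library size after TMM scaling. Nr3c1, the gene of the glucocorticoid receptor, was at 74.7 to 94.0 CPM in GRMAC and 63.8 to 81.2 CPM in GRflox liver (log2 fold change 0.18 ± 0.08, adjusted p = 0.277, edgeR). Hepatocytes express it too, so its level in whole liver does not check a deletion in myeloid cells. The labels do not say that each library is a separate animal, so p-values measure the spread between these libraries, which may be technical in part. Summed hepatocyte markers (8 of 8 measured, Alb and Ttr among them) were at 114988 to 141143 CPM in GRMAC and 119240 to 135664 CPM in GRflox liver, and Kupffer cell markers (10 of 10) at 290.4 to 416.6 CPM in GRMAC and 245.6 to 324.6 CPM in GRflox liver. Of 6 pancreas and adipose markers, Cpa1, Prss2 and Pnlip were at 0 in all libraries. In whole tissue, fewer cells of a type and less RNA per cell cannot be told apart.

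No clock gene of the set passed the test between genotypes. With edgeR's quasi-likelihood test, adjusted over all 12558 genes tested, 0 of 9 had an adjusted p under 0.05, where 22 genes (0.175%) did in all. At an unadjusted p under 0.05 there were 2 of 9, against 16.3% of all genes tested: Per3, higher in GRMAC, and Per2, lower in GRMAC. DESeq2 and limma-voom on the same counts also called 0 of 9, against 3.48% and 0.0637% of all genes, and the authors' deposited table called 0 of 9, against 3.33%. In each of the 9 genes the CPM ranges of the genotypes overlapped, as they did in all but 4.05% of tested genes. The median log2 fold change of the 9 (GRMAC over GRflox) was 0.09, with 6 positive and 3 negative, beside a median of 0.00 over all genes tested.

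**Figure D1:**
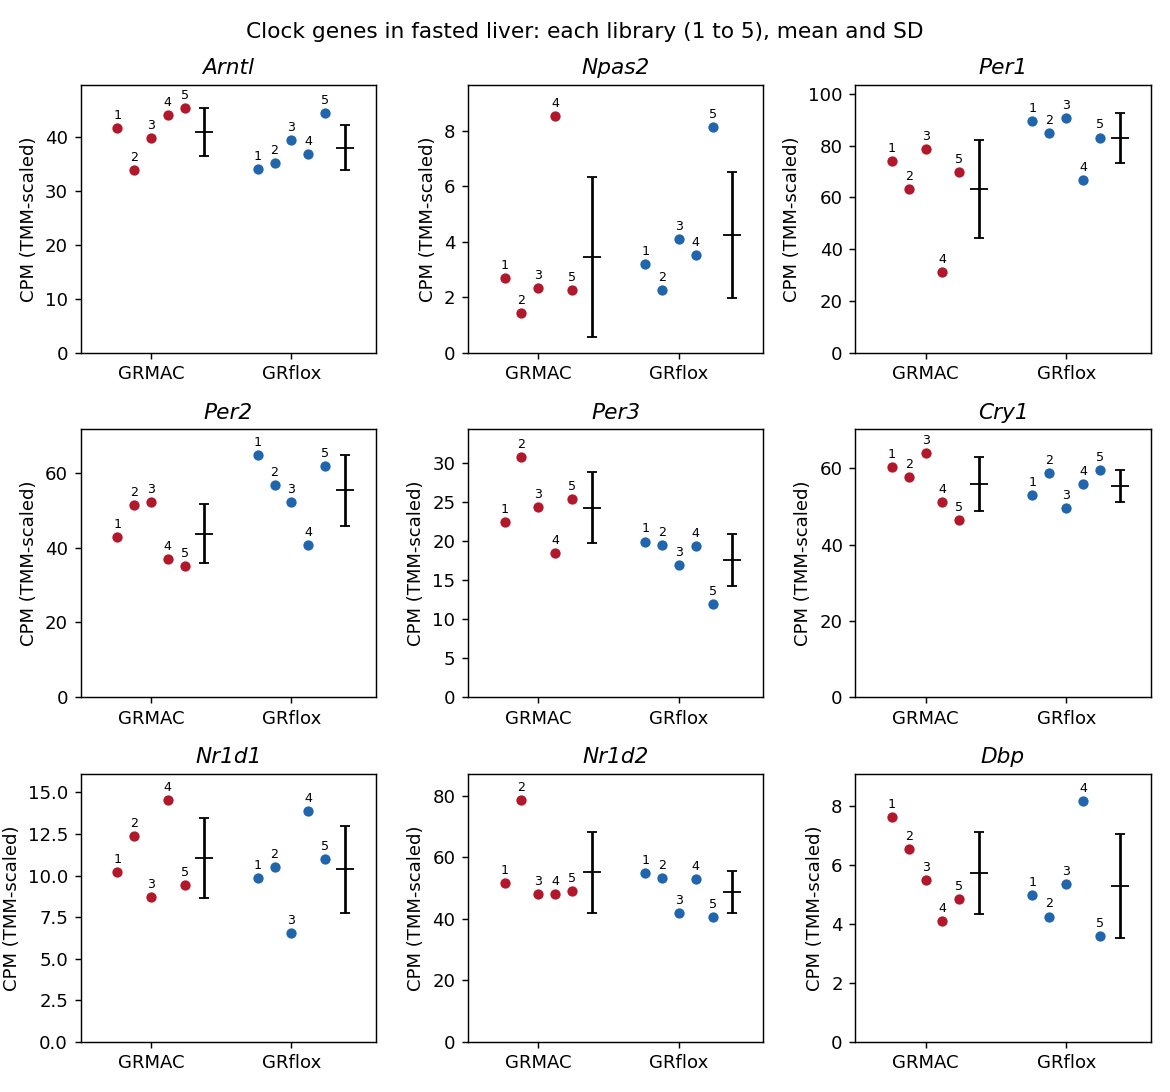
TMM-scaled CPM (vertical axes, from 0) of the 9 measured clock genes in each GRMAC and GRflox library. Numbers are the library numbers, and the bar beside each group is its mean and SD (n = 5). The 2 highest Npas2 points are GRMAC 4 and GRflox 5, and the lowest Per1 point is GRMAC 4.

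Among the activators, Arntl (chromosome 7, 113207465 to 113314126, mm10) was at 41.6, 33.8, 39.7, 44.0 and 45.2 CPM in GRMAC 1 to 5, against 34.0, 35.1, 39.4, 36.8 and 44.4 CPM in GRflox 1 to 5. The groups lay over each other, and no library stood apart. Its log2 fold change was 0.11 ± 0.09 (SE; edgeR, adjusted p = 0.589), with a 95% interval of −0.08 to 0.30. Npas2 (chromosome 1, 39194272 to 39363240), which can stand in for CLOCK as the partner of BMAL1, was at 2.67, 1.42, 2.34, 8.53 and 2.26 CPM in GRMAC 1 to 5, against 3.20, 2.26, 4.11, 3.53 and 8.12 CPM in GRflox 1 to 5. A single library of each genotype, GRMAC 4 and GRflox 5, was far above the other 4 of its group. The gene's means were 3.45 ± 2.88 CPM in GRMAC and 4.24 ± 2.27 CPM in GRflox liver (SD, n = 5 each). Its log2 fold change of −0.30 ± 0.52 (adjusted p = 0.820, edgeR) turned to 0.08 without GRflox 5 and was −0.97 without GRMAC 4. Npas2 rested on 37 to 222 counts a library, and at 37 counts the counting error is 16.4%.

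The Per genes encode the inhibitory PER proteins. None of the 3 passed the test; the fold changes of Per1 and Per2 were negative and that of Per3 was positive. Per1 (chromosome 11, 69098956 to 69109957) was at 74.0, 63.4, 78.6, 31.0 and 69.7 CPM in GRMAC 1 to 5, against 89.5, 85.0, 90.8, 66.6 and 83.1 CPM in GRflox 1 to 5. GRMAC 4 was the lowest of all libraries, and GRflox 4 the lowest of its group. The log2 fold change was −0.39 ± 0.22 (adjusted p = 0.419, edgeR), and −0.22 without GRMAC 4. Per2 (chromosome 1, 91415982 to 91459328) was at 42.9, 51.4, 52.2, 37.1 and 35.2 CPM in GRMAC 1 to 5, against 64.9, 56.9, 52.1, 40.8 and 61.9 CPM in GRflox 1 to 5. GRflox 4 lay among the GRMAC libraries, and the other 4 GRflox values were close to or above the highest GRMAC values. The log2 fold change of Per2 was −0.34 ± 0.14, with a 95% interval of −0.65 to −0.02, and it did not pass after adjustment (unadjusted p = 0.0393, adjusted p = 0.279, edgeR).

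Per3 (chromosome 4, 151003655 to 151044665), whose protein is regarded as the least essential of the PER family for the rhythm itself, went the other way. It was at 22.5, 30.9, 24.4, 18.5 and 25.5 CPM in GRMAC 1 to 5, against 19.98, 19.6, 17.0, 19.4 and 11.9 CPM in GRflox 1 to 5. GRMAC 4 was the only GRMAC library below any GRflox library, and GRflox 5 was the lowest of all. Means were 24.3 ± 4.52 CPM in GRMAC and 17.6 ± 3.36 CPM in GRflox liver (SD, n = 5 each), and the log2 fold change of 0.47 ± 0.16 did not pass after adjustment (unadjusted p = 0.0113, adjusted p = 0.179, edgeR). The fold change stayed between 0.36 and 0.56 over the 20 alternatives run, with adjusted p between 0.068 and 0.285. The authors' deposited table gives Per3 a log2 fold change of 0.47 with an adjusted p of 0.0695. Cry1 (chromosome 10, 85131700 to 85185054), which encodes the cryptochrome that represses late in the night, was nearly level, at 60.4, 57.6, 64.1, 51.3 and 46.6 CPM in GRMAC 1 to 5, against 53.1, 58.9, 49.5, 55.9 and 59.5 CPM in GRflox 1 to 5. Its GRMAC libraries reached both higher and lower than its GRflox libraries, and its log2 fold change was 0.02 ± 0.08 with a 95% interval of −0.17 to 0.20 (adjusted p = 0.949, edgeR).

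Nr1d1 (chromosome 11, 98767932 to 98775377), the gene of the repressor REV-ERB alpha, was at 10.2, 12.4, 8.69, 14.5 and 9.42 CPM in GRMAC 1 to 5, against 9.87, 10.5, 6.54, 13.9 and 11.0 CPM in GRflox 1 to 5. Its highest library in each genotype was number 4. Nr1d2 (chromosome 14, 18204056 to 18239106), the gene of REV-ERB beta, was at 51.5, 78.8, 47.9, 48.0 and 49.1 CPM in GRMAC 1 to 5, against 54.9, 53.1, 41.9, 53.0 and 40.6 CPM in GRflox 1 to 5. GRMAC 2 alone stood above the rest. The log2 fold changes were 0.09 ± 0.19 for Nr1d1 (adjusted p = 0.848) and 0.18 ± 0.15 for Nr1d2 (adjusted p = 0.606), both with edgeR. The value for Nr1d2 was 0.02 without GRMAC 2, and that for Nr1d1 was −0.03 without GRMAC 4 and likewise −0.03 without GRflox 3. Dbp (chromosome 7, 45705247 to 45710203), a transcription factor gene of clock output with one of the widest daily swings in liver, was at 7.63, 6.54, 5.48, 4.11 and 4.85 CPM in GRMAC 1 to 5, against 4.99, 4.25, 5.36, 8.19 and 3.58 CPM in GRflox 1 to 5. GRflox held both its highest library (GRflox 4) and its lowest (GRflox 5). Its log2 fold change was 0.12 ± 0.22, with a 95% interval of −0.37 to 0.60 (adjusted p = 0.836, edgeR), and the gene rested on 97 to 218 counts a library. It was 0.33 without GRflox 4 and 0.00 without GRMAC 1 or without GRflox 5.

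**Figure D2:**
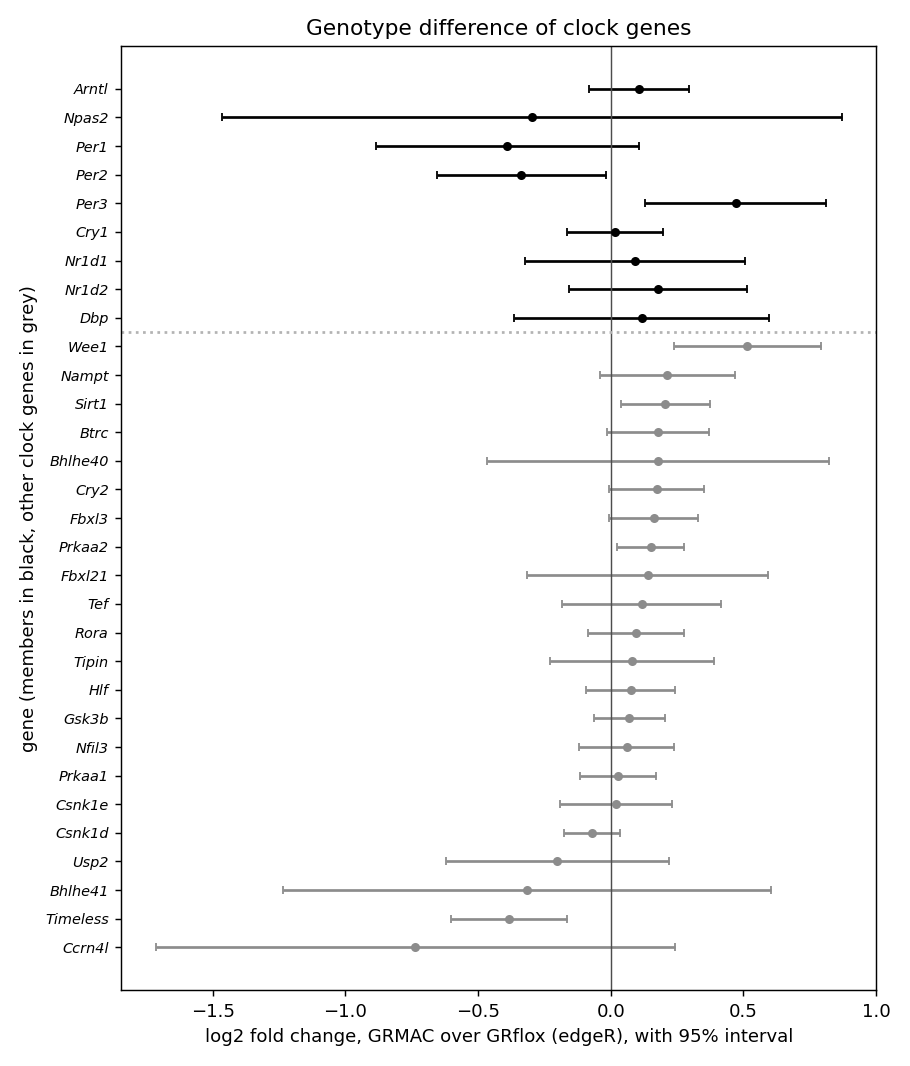
Log2 fold change of GRMAC over GRflox (horizontal axis) with its 95% interval, for the 9 measured clock genes of the set (black) and 22 other clock genes (grey). The intervals of Per2, Per3, Wee1, Timeless, Sirt1 and Prkaa2 do not cross 0, and none of these genes passed after adjustment over all genes with edgeR.

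Most genes of the set varied between libraries of a genotype more than the typical gene did. The biological coefficient of variation, which is the spread between libraries of a genotype after counting error is taken off, had a median of 17.4% over the 9 genes and of 11.1% over all genes tested. It was 54.9% for Npas2 (percentile 99.5 of all genes tested), 24.3% for Per1 (percentile 91.8), 23.6% for Dbp (percentile 91.1) and 20.6% for Nr1d1 (percentile 86.6). Arntl (10.8%) and Cry1 (10.5%) were near the median of all genes.

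To show how the libraries lay along the order in which these genes peak, the mean level of the dawn genes Arntl and Npas2 was set against that of Nr1d1, Nr1d2, Dbp and Per3, which peak earlier, as the difference of the 2 means of log2 CPM centred per gene. This grouping was chosen after the values were seen and gets no test. The difference was −0.26, −1.13, −0.22, 0.79 and −0.16 in GRMAC 1 to 5, against −0.10, −0.27, 0.46, −0.25 and 1.13 in GRflox 1 to 5. GRflox 5 and GRMAC 4 were highest, GRMAC 2 was lowest, and each genotype spanned most of the range. Group means were −0.20 ± 0.68 in GRMAC and 0.20 ± 0.60 in GRflox (SD, n = 5 each), and the gap between them was smaller than the SD of either. GRflox 5 remained highest and GRMAC 2 lowest when any of the 6 genes was left out. The span depended much on Npas2, without which GRflox 5 was at 0.58 and GRMAC 2 at −0.65. Without Npas2 the second highest was GRflox 3 (0.31) and the third highest was GRMAC 5 (0.21), with GRMAC 4 below them.

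**Figure D3:**
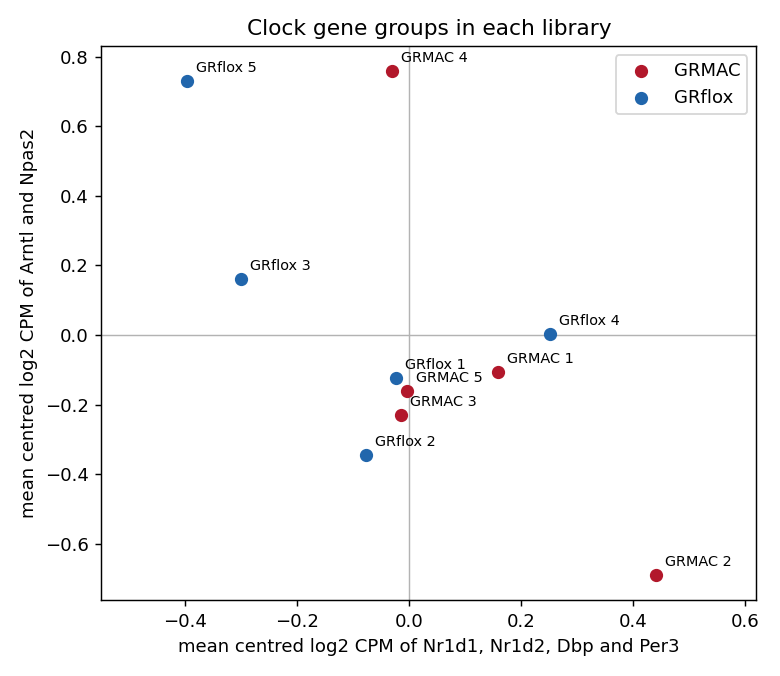
Each library placed by the mean centred log2 CPM of Nr1d1, Nr1d2, Dbp and Per3 (horizontal axis) and of Arntl and Npas2 (vertical axis). GRflox 5 (−0.40 and 0.73) and GRMAC 2 (0.44 and −0.69) lie at opposite corners, and GRMAC 4 (−0.03 and 0.76) is high on the vertical axis alone.

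GRflox 5 had the highest Npas2 of its group together with the lowest Per3, Nr1d2 and Dbp of all libraries, and GRMAC 2 had the lowest Arntl and Npas2 of all with the highest Per3 and Nr1d2. GRMAC 4 shared the high Npas2 but not all of the rest: its Nr1d1 was the highest of all libraries, its Per1 the lowest, and its Nr1d2 (48.0 CPM) lay within the range of the other libraries. The libraries thus differed in the balance of dawn and day genes, as grouped here, within each genotype. Per3, counted with the day genes, peaks around dusk, and Per1 and Per2 were left out of the grouping. Centred on their means, Per1 and Per2 were at 0.24 and 0.35 in GRflox 5 but at −1.18 and −0.39 in GRMAC 4. Nr1d1, a day gene, was not low in GRflox 5 (0.07) or GRMAC 4 (0.47). With 1 time point and no time series of these mice, that balance cannot be turned into clock hours, and a library that differs in phase cannot be told apart from one in which single clock genes differ. Marker sums also differed between libraries. GRMAC 2 had the lowest summed hepatocyte markers (114988 CPM), the lowest sinusoidal endothelial markers (135.2 CPM) and the highest cholangiocyte markers (49.2 CPM) of all libraries. In GRMAC 4 the hepatocyte markers (141143 CPM) and the Kupffer cell markers (416.6 CPM) were the highest of all libraries, and in GRflox 5 the hepatocyte markers (135664 CPM) were the highest of GRflox. The part of cell composition in these levels was not tested.

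**Figure D4:**
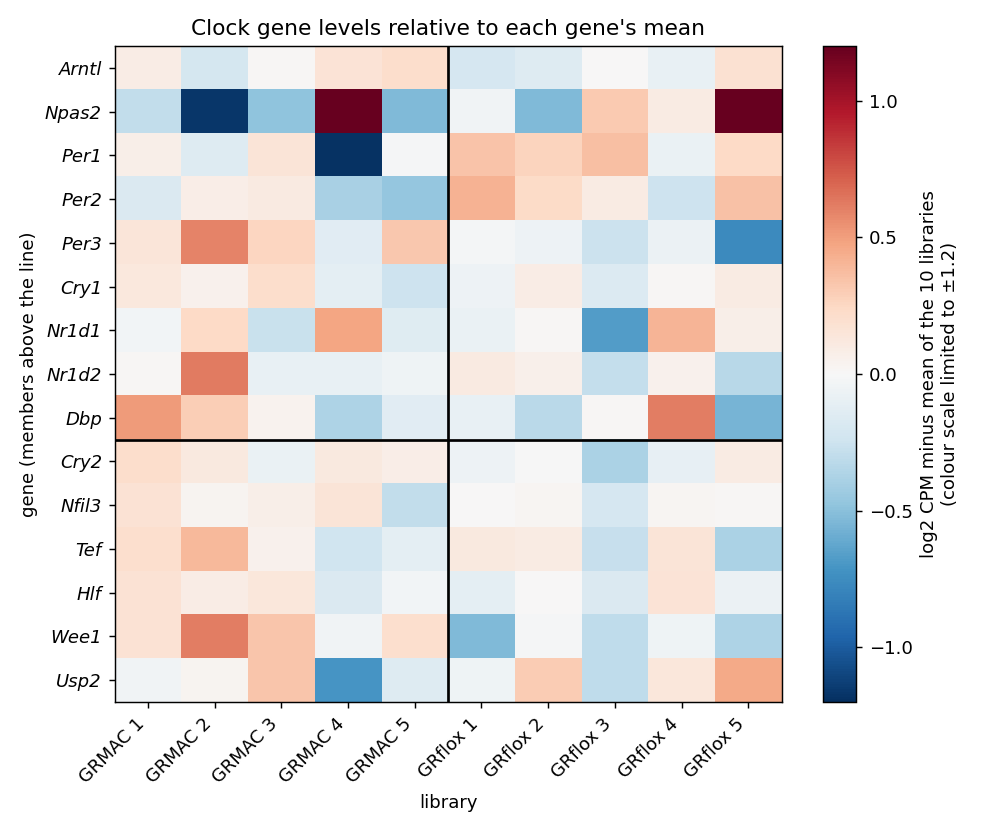
Log2 CPM minus the gene's mean over all 10 libraries (colour), for the 9 measured genes of the set (above the line) and 6 other clock genes (below it), with GRMAC libraries left of GRflox libraries. Npas2 is high in GRMAC 4 and GRflox 5. Per3, Dbp and Tef are below their means in both, Per3 only slightly in GRMAC 4 (−0.14), where Nr1d1 is high (0.47).

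Levels of 6 pairs of clock genes, chosen because they peak together or apart over the day, were correlated over the 10 libraries. Per1 with Per2 had Pearson's r = 0.65 (permutation p = 0.0174, adjusted p = 0.104 over the 6 pairs) and Spearman's rho = 0.75 (permutation p = 0.0172, adjusted p = 0.103). Without GRMAC 2 and GRMAC 4, the libraries farthest from the median of Per1, r was 0.86 (exact permutation p = 0.00871, adjusted p = 0.0465). On the same libraries rho was 0.71 and did not pass (exact permutation p = 0.0576, adjusted p = 0.249). As deviations from the genotype means, r was 0.49 (exact permutation p = 0.139). Arntl with Npas2 had r = 0.56 (permutation p = 0.0971, adjusted p = 0.225) and rho = 0.42 (permutation p = 0.232, adjusted p = 0.348), and r = 0.74 as deviations from the genotype means (exact permutation p = 0.0333, adjusted p = 0.200). Without GRMAC 2 and GRflox 1 it was 0.45.

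Dbp with Per3 had r = 0.53 (permutation p = 0.113, adjusted p = 0.225) and rho = 0.44 (permutation p = 0.206, adjusted p = 0.348). Without GRMAC 1 and GRflox 4 r was 0.81 (exact permutation p = 0.0155, adjusted p = 0.0465), while rho was 0.67 and did not pass (exact permutation p = 0.0831, adjusted p = 0.249). Arntl with Dbp had r = −0.35 (permutation p = 0.311) and rho = −0.43 (permutation p = 0.217), and r = −0.36 without GRMAC 2 and GRflox 1. Nr1d1 showed no relation that passed with Arntl (r = −0.06, permutation p = 0.881; rho = −0.09, permutation p = 0.811) or with Dbp (r = 0.08, permutation p = 0.816; rho = −0.08, permutation p = 0.837). Without the libraries farthest from the median, r was 0.05 with Arntl (without GRMAC 2 and GRflox 1) and 0.44 with Dbp (without GRMAC 4 and GRflox 3; exact permutation p = 0.282, adjusted p = 0.423). None of the 6 pairs passed after adjustment with all 10 libraries, and no correlation is given within a single genotype of 5 libraries.

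Of 24 other clock genes listed, 23 were in the count table and 22 passed the filter; Rorb was at 0 in all libraries. Log2 fold changes were positive for 17 and negative for 5 of the 22, with a median of 0.09. With edgeR 0 of the 22 passed, and 4 had an unadjusted p under 0.05 (Wee1, Prkaa2 and Sirt1 higher and Timeless lower in GRMAC), against the 16.3% of all genes given above. In the authors' deposited table Wee1 and Timeless passed (Wee1 log2 fold change 0.51, adjusted p = 0.0144; Timeless −0.39, adjusted p = 0.0244). Wee1, a kinase gene of mitotic entry with an E-box-driven rhythm in liver, was at 12.7, 17.2, 14.2, 10.9 and 13.0 CPM in GRMAC 1 to 5, against 7.77, 11.1, 9.13, 10.9 and 8.71 CPM in GRflox 1 to 5. GRMAC 4 lay among the upper GRflox libraries, and the other 4 GRMAC libraries were above every GRflox library. The log2 fold change was 0.51 ± 0.13 (adjusted p = 0.0914, edgeR). Timeless, whose mammalian protein is known mainly for its work at replication forks, was at 8.36, 9.85, 11.0, 10.7 and 11.7 CPM in GRMAC 1 to 5, against 15.2, 12.5, 14.0, 11.7 and 14.1 CPM in GRflox 1 to 5. The groups did not overlap, though the highest GRMAC and the lowest GRflox library nearly met, and the log2 fold change was −0.38 ± 0.10 (adjusted p = 0.102, edgeR).

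The partners of the set by role gave small differences that did not pass with edgeR. Cry2, the second cryptochrome gene, was at 43.2 ± 3.13 CPM in GRMAC and 38.3 ± 4.58 CPM in GRflox liver (log2 fold change 0.17 ± 0.08, adjusted p = 0.318; SD and n = 5 for the means, SE for the fold change). Nfil3, a repressor at D-boxes, was at 60.2 ± 7.40 CPM in GRMAC and 57.7 ± 3.78 CPM in GRflox liver. Tef and Hlf belong with Dbp to the PAR bZIP family of D-box activators. Tef had 161.5, 184.7, 146.3, 119.5 and 129.9 CPM in GRMAC 1 to 5, against 152.7, 150.5, 116.1, 156.6 and 108.2 CPM in GRflox 1 to 5, so that GRMAC 2 was highest and GRflox 5 lowest, as for Per3 and Nr1d2. Hlf ranged from 57.9 to 73.6 CPM in GRMAC and from 58.0 to 73.3 CPM in GRflox liver. Usp2, a deubiquitinase gene with a strong rhythm in liver, was at 24.7 ± 6.08 CPM in GRMAC and 28.4 ± 5.69 CPM in GRflox liver, lowest in GRMAC 4 (15.8 CPM) and highest in GRflox 5 (35.4 CPM). Bhlhe41, a repressor at E-boxes, was at 0.569 ± 0.214 CPM in GRMAC and 0.707 ± 0.456 CPM in GRflox liver and rested on 5 to 38 counts a library.

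Over the 31 clock genes tested, members and others, GRflox 5 was the lowest library for 10 (32.3%), where it was the lowest for 12.8% of all genes tested. GRMAC 2 was the highest library for 7 of the 31 (22.6%), where it was the highest for 14.0% of all genes tested. GRflox 3 was the lowest for 6 of the 31 (19.4%), where it was the lowest for 9.26% of all genes tested. Over all genes tested, GRMAC 2, GRMAC 4 and GRflox 5 were most often the highest library and also most often the lowest. Clock genes share regulators and are not independent of each other, so these shares are a description.

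Known output genes of the liver clock showed no call with edgeR either (17 of 17 tested; 4 positive and 13 negative log2 fold changes, median −0.11; 3 at an unadjusted p under 0.05, against 16.3% of all genes tested). The lowest p was that of Lonrf3, at 37.0 ± 5.07 CPM in GRMAC and 28.4 ± 3.22 CPM in GRflox liver (log2 fold change 0.38 ± 0.10, adjusted p = 0.102, edgeR), which was higher in GRMAC in the authors' deposited table (adjusted p = 0.0272). Among cues, 7 of 8 glucocorticoid-induced genes had negative log2 fold changes (median −0.23) and 0 passed with edgeR, with 1 of 8 at an unadjusted p under 0.05, against the same 16.3%. That gene was Tat, of tyrosine breakdown, at 1757, 1326, 2936, 1171 and 1392 CPM in GRMAC 1 to 5, against 3961, 2774, 3769, 2908 and 2471 CPM in GRflox 1 to 5. Its log2 fold change was −0.89 ± 0.26 (adjusted p = 0.149, edgeR). Of 20 alternatives it passed in 2, without GRMAC 3 (−1.17, adjusted p = 0.0167) and with the replicate number as a block (−0.95, adjusted p = 0.0159). It did not pass in the other 18 (adjusted p up to 0.272) or in the authors' deposited table (adjusted p = 0.0701). The lowest library of Tat was GRMAC 4, as for Per1. Tsc22d3, the gene of the glucocorticoid-induced leucine zipper protein, was lowest there too (48.1 CPM, against 60.8 to 117.2 CPM in the other GRMAC and 82.4 to 130.4 CPM in the GRflox libraries), and so was Errfi1 (1016 CPM). The rest of that list, Fkbp5, Sgk1, Klf9, Zbtb16 and Pdk4, had their lowest values in other libraries. In GRMAC 4 Fkbp5 was at 329.0 CPM, against 177.8 CPM in GRMAC 2, and Pdk4 was at 272.0 CPM, against 60.0 CPM in GRMAC 3.

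Of 9 temperature-responsive genes listed, 8 were in the count table and tested, and all 8 had negative log2 fold changes (median −0.75). An unadjusted p under 0.05 was found for 7 of them, against 16.3% of all genes tested, and 0 passed with edgeR. Those 7 were Hspa1a, Hspa1b, Hsp90aa1, Hsph1, Dnajb1, Hspb1 and Hspa8. Rbm3 was nearly level between genotypes (−0.03 ± 0.12, adjusted p = 0.928, edgeR). Hspa1b, of the inducible heat shock protein HSP70, had the lowest p (−1.84 ± 0.39, adjusted p = 0.0895). The authors' deposited table has 4 of the 8, Hspa1a, Hspa1b, Dnajb1 and Hspa8, as lower, against 3.33% of all its genes called in either direction. Reads of Hspa1a and Hspa1b cannot be told apart with confidence because these genes are nearly identical. Hspa1b was at 11.5 to 16.5 CPM over the GRMAC libraries and at 41.8, 25.6, 81.3, 27.6 and 90.3 CPM in GRflox 1 to 5. The groups did not overlap, every GRflox library being above every GRMAC library. Within GRflox the values ranged widely, with GRflox 5 and GRflox 3 highest, the libraries that were also highest of GRflox on the balance of dawn and day genes. Within GRMAC Hspa1b varied much less. It was at 15.6 CPM in GRMAC 2, the lowest library on the balance (−1.13), and at 15.8 CPM in GRMAC 4, the highest of GRMAC (0.79). A relation of Hspa1b to the balance was not tested. Genes of the cAMP and immediate early response (9 of 10 tested) had a median log2 fold change of 0.29, and 0 of 9 passed with edgeR or had an unadjusted p under 0.05; the lowest p was that of Ier2 (0.29 ± 0.15, adjusted p = 0.355).

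The genes whose pattern over the 10 libraries was closest to a member's were taken by the root mean square difference of centred log2 CPM, over 11558 genes outside the set with a mean of at least 1 CPM. For Arntl these were Tada2b (0.050), Ccdc30 (0.061) and Slc39a13 (0.066), beside a median of 0.216 over all those genes. For Dbp they were Aoah (0.169), Lrit1 (0.191) and Acvr2b (0.199), beside a median of 0.391. For Per1 they were Cyp2a4 (0.154), Stkld1 (0.205) and Cnnm4 (0.229), beside a median of 0.454. Cyp2a4, a steroid hydroxylase gene and itself a known target of DBP, was at 686.8 CPM in GRMAC 4 and at 1071 to 1586 CPM in the other 9 libraries, so that it shares with Per1 the low value of that library. Cyp2a4 is nearly identical to Cyp2a5, and reads of the pair may not be told apart in these counts.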

How the data were processed

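Polyadenylated RNA of whole liver was sequenced with paired ends after an NEBNext Ultra library preparation, per the labels' protocols. The authors deposited raw read counts per gene for 10 libraries. HISAT2 2.1.0, DESeq2 1.24.0 and the mm10 build are listed in the submitters' processing notes. The counter, annotation and strand setting are not given in the sources used here. A second deposited table holds the authors' log2 fold changes of knockout against control and their adjusted p-values; its scaled values for 10 libraries (signal in the deposited table) were not used. Starts and ends are those of the count table, with the first base counted as 1.

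Columns were matched to libraries by genotype and number in the titles. filterByExpr kept 12558 of 19764 genes, taking away 0.0348% of the counts. GRMAC was compared with GRflox by edgeR 4.0.16 (TMM, robust quasi-likelihood test, R 4.3.3), with Benjamini-Hochberg adjustment over all genes tested and a threshold of 0.05. Each SE is the fold change over the root of its F statistic, and 95% intervals from the fit's degrees of freedom. Log2 CPM has a prior count of 2. Correlations used 100000 permutations for 10 libraries, full enumeration for 8, and all 14400 permutations within genotypes for deviations. DESeq2 1.42.0 and limma-voom (limma 3.58.1) were alternatives. The fit was tested on simulated data with known changes. There edgeR recovered 68.8% of 1.5-fold and 85% of 2-fold changes, and 5.68% of its calls were false. Of the DESeq2 calls 14.1% were false. Named genes are all members, clock genes fixed by symbol, and in each other list the gene with the lowest p and those that passed; members and lists were chosen with earlier results of these data known. Tsc22d3 and further genes of the cue lists were named after their values were seen. Intervals and counting errors cover counting or library spread only. A listed clock gene is not reported here.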

Additional observations from a re-analysis of the deposited data

Results flagged for a closer look

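Each group of 5 values of the 9 clock genes, of 7 other clock genes and of the balance of dawn and day genes was examined for a library far from the other 4. Of 34 such groups 3 held one, where chance gives about 1 in 20. Npas2 was at 8.53 CPM in GRMAC 4, against 1.42 to 2.67 CPM in the other GRMAC libraries. Nr1d2 was at 78.8 CPM in GRMAC 2, against 47.9 to 51.5 CPM in the other GRMAC libraries. Nfil3 was at 51.0 CPM in GRflox 3, against 58.8 to 59.8 CPM in the other GRflox libraries.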

How the results depend on the processing

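The count of clock genes of the set that passed was 0 under each of the 21 settings run, and 1 to 3 of the 9 had an unadjusted p under 0.05. The corrections for GC content and length, the fit without GRflox 5 and GRMAC 4, the alternatives for other clock genes and the leaving out of single genes were added once the data had been seen. The other clock genes gave 2 calls with DESeq2 and 1 at adjusted p under 0.1, where edgeR gave 0. Over all genes the 22 calls became 437 with DESeq2, 8 with limma-voom, 8 without robust estimation, 34 with no filter, 241 at adjusted p under 0.1, 12 with the GC and length correction, 6 without GRflox 5 and GRMAC 4, and 5 to 47 with single libraries left out; the cause was not tested. With the replicate number as a block it was 81, with 0 of the 9 clock genes called. The numbers were not shown to pair the libraries: correlations of same-numbered deviations ran from −0.11 to 0.17, and not every library correlated best with its own number.

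Small fold changes turned sign. Leaving out a library gave −0.97 to 0.079 for Npas2, −0.033 to 0.075 for Cry1, −0.031 to 0.22 for Nr1d1, −0.0034 to 0.33 for Dbp and −0.55 to 0.094 for Bhlhe41. Without GRflox 5 and GRMAC 4, Nr1d1 was −0.0040, Bhlhe41 0.16 and Usp2 0.015. Of the 6 correlations 0 passed with all libraries. By Pearson's r 2 passed without the libraries farthest from the median, which were chosen for each pair from its own values. By Spearman's rho neither of these passed (adjusted p = 0.249 for both, exact permutation). Arntl with Nr1d1 was 0.0018 with library totals and 0.048 without GRMAC 2 and GRflox 1. Counting error at the lowest library was 16.4% for Npas2, 10.2% for Dbp and 44.7% for Bhlhe41, beside a spread between libraries of 54.9%, 23.6% and 39.1%.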

Other observations

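The following genes were chosen after their values were seen. Ccrn4l, the gene of the deadenylase-related protein nocturnin and a rhythmic gene of liver, was at 26.8, 46.0, 41.9, 23.7 and 75.6 CPM in GRMAC 1 to 5, against 58.7, 46.7, 56.0, 51.9 and 143.4 CPM in GRflox 1 to 5 (log2 fold change −0.74 ± 0.43, adjusted p = 0.436, edgeR). Its highest library was GRflox 5 and its lowest GRMAC 4, the libraries that shared a high Npas2. Cyp7a1, the rate-limiting enzyme of bile acid synthesis, whose level has a daily rhythm in liver, was at 38.1, 28.9, 64.5, 46.3 and 64.8 CPM in GRMAC 1 to 5, against 2.69, 2.78, 39.8, 24.8 and 6.20 CPM in GRflox 1 to 5. GRflox 3 lay among the GRMAC libraries and GRflox 4 just below them, and the log2 fold change of 1.67 ± 0.76 did not pass (adjusted p = 0.321, edgeR).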
